A study of Rattus norvegicus with 6 samples.

Results

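Genes of the retinal pigment epithelium, 10 in all, were followed through 6 rat retina libraries. They are Rpe65, Lrat, Rgr, Rdh5, Ttr, Best1, Mitf, Tyr, Tyrp1 and Pmel. They were chosen by symbol, as a sign of pigment epithelium carried along in the dissection of the retina. All 10 were found among the 34170 genes of the deposited table, each with 1 entry, and 9 of them had a mean of at least 0.5 FPKM and were tested with 16363 genes in all. FPKM count sequenced fragments per unit of gene length and of library size. Tyr, the remaining member, was too low to test.

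The diabetic group was 3 male Sprague-Dawley rats given streptozotocin, which kills pancreatic beta cells and so removes insulin, at 60 mg/kg after a fast of 12 h on 5 days. The control group was 3 male Sprague-Dawley rats given the citrate buffer alone on 5 days. A fasting blood glucose above 16.7 mmol/L, measured 1 week after the last injection, counted as diabetic, and neither the age of the rats nor the day of dissection is stated in the labels. The labels call the control group WT, and no genetic change is named for either group. Each library has its own labelled body weight, so the p-values below measure the spread between these animals.

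The pigment epithelium is a single sheet of cells that lies against the photoreceptors and outside the neural retina. It turns all-trans retinol back into the visual chromophore, takes up shed outer segments, moves ions and fluid towards the choroid and, in pigmented animals, carries melanin. When a rodent retina is peeled from the eyecup, most of this sheet stays behind, so its messenger RNA in a retinal library comes from whatever adhered. Sprague-Dawley rats are albino because their tyrosinase is inactive, and their pigment epithelium makes premelanosomes without melanin. In whole-tissue RNA, fewer cells of a type and less RNA per cell cannot be told apart.

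The libraries were retinal by their markers, with the rod transducin gene Gnat1 between 3286 and 5146 FPKM. The fragments behind the FPKM could be rebuilt and summed to between 12417686 and 19115426 per library, fewest in control 2. The members rested on 1 to 992 fragments per library, and the 95% Poisson intervals quoted for single libraries are exact and cover counting error alone. A list of 9 rod genes summed to 14018 to 16225 FPKM in diabetic and 18935 to 19861 FPKM in control retina. Lens and cornea genes differed between libraries far more than retinal ones. The 11 lens genes summed to 14.2, 52.8 and 37.6 FPKM in diabetic 1, 2 and 3 and to 17.8, 47.8 and 409.6 FPKM in control 1, 2 and 3. The 7 genes of cornea and conjunctiva summed to 18.8, 2.02 and 6.05 FPKM in diabetic 1, 2 and 3 and to 2.64, 14.97 and 3.59 FPKM in control 1, 2 and 3.

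The sequences upstream of the members are shown first, because several members moved together across libraries and because Mitf, a member itself, is known to act through a short sequence, the M-box. For all 10 members the 250 bases before the gene start were read from RefSeq on build GRCr8. The letters searched on both strands were TCATGTG (the M-box), CACGTG (the E-box), CANNTG (a wider E-box, which every M-box and every E-box also holds) and GGATTA (a site of OTX factors). The M-box was found in Tyr and Tyrp1, that is in 2 of 10 members, and in 3.07% of 33469 promoters of the same length. The OTX letters stood in Rpe65, Rgr and Tyrp1, 3 of 10 members, and in 6.34% of all promoters. The E-box was found in 0 members and 5.59% of promoters. The wider E-box was found in 9 of 10 members and in 65.5% of promoters, so it sets few promoters apart. A match is a run of letters and not a site shown to be used, and the start annotated by RefSeq may not be the one used in pigment epithelium. Of the 4 promoters that hold the M-box or the OTX letters, each is printed 5′ to 3′ in the direction of the gene, with these letters in capitals.
Tyrp1 (chr5:100326875-100327124, plus strand): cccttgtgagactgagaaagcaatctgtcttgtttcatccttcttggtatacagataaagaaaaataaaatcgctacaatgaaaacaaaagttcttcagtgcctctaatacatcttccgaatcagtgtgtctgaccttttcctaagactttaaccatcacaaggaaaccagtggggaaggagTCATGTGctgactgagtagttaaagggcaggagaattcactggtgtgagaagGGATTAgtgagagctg
Tyr (chr1:150622858-150623107, minus strand): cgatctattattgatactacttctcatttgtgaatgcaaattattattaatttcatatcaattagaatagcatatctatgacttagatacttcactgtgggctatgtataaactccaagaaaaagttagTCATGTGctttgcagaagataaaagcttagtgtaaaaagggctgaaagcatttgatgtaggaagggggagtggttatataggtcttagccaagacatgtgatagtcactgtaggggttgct
Rpe65 (chr2:251425118-251425367, plus strand): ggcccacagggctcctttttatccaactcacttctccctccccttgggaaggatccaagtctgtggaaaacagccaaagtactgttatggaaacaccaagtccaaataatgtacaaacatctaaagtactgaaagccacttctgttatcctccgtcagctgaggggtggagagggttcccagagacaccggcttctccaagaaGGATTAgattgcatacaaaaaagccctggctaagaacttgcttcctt
Rgr (chr16:12836487-12836736, minus strand): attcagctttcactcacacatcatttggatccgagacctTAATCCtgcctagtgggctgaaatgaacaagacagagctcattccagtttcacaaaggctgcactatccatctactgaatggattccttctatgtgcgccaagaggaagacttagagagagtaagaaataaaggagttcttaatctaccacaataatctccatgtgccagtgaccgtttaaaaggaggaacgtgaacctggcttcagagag
The M-box of Tyrp1 begins 68 bases before the gene start and its OTX letters 16 bases before it. In Tyr the M-box begins 121 bases before the start. The OTX letters begin 47 bases before the start in Rpe65 and 211 bases before it, on the other strand, in Rgr.

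The levels of the members spanned a wide range. By mean FPKM over the 6 libraries the order was Ttr, Rgr, Rpe65, Tyrp1, Mitf, Pmel, Rdh5, Lrat, Best1 and Tyr, at 50.2, 8.34, 4.09, 2.94, 1.71, 1.63, 1.04, 0.665, 0.624 and 0.0701 FPKM. Ttr lay above Rgr in 6 of 6 libraries with no overlap of their ranges, and Best1 lay above Tyr in the same way. Rgr was above Rpe65 and Rdh5 above Lrat in each of the 6 libraries, although their ranges over libraries overlapped. The other neighbours changed places between libraries and did not differ beyond their spread, as Rpe65 and Tyrp1 did, where Rpe65 was the higher in 3 of 6 libraries. Ttr was above 92.7% of the genes detected in the table and Rpe65 above 54.3%.

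The first group of members makes and handles retinoids. Rpe65, the isomerohydrolase that makes cis-retinol and the defining enzyme of the pigment epithelium, was at 7.10, 3.38 and 2.44 FPKM in diabetic 1, 2 and 3, against 3.88, 3.93 and 3.82 FPKM in control 1, 2 and 3. The control libraries were nearly equal, diabetic 1 stood above all of them and diabetic 2 and 3 below. The counting interval of diabetic 1 was 6.30 to 7.96 FPKM and that of diabetic 3 was 1.98 to 2.97 FPKM, so the spread within the diabetic group was larger than counting error. The log2 difference, diabetic minus control, was 0.02 with a standard error of 0.32 (adjusted p = 0.984, limma), and without diabetic 1 it was -0.37 (adjusted p = 0.339, limma).

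Lrat, which esterifies retinol to feed Rpe65, was at 0.699, 0.348 and 0.523 FPKM in diabetic 1, 2 and 3 and at 0.792, 1.24 and 0.386 FPKM in control 1, 2 and 3. The groups overlapped, since control 3 was lower than 2 of the diabetic libraries. These levels rested on 26 to 79 fragments, and the log2 difference was -0.31 with a standard error of 0.31 (adjusted p = 0.616, limma). It was -0.08 without control 2 and -0.57 without control 3. Rdh5, the dehydrogenase that oxidises cis-retinol to the chromophore, was at 1.59, 0.588 and 0.687 FPKM in diabetic 1, 2 and 3, against 1.60, 1.29 and 0.473 FPKM in control 1, 2 and 3. Here diabetic 1, control 1 and control 2 were high and the other 3 libraries low. Its log2 difference was -0.15 with a standard error of 0.38 (adjusted p = 0.863, limma), and it rested on 14 to 70 fragments. The difference was 0.08 without control 1 and 0.03 without diabetic 2.

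Rgr, an opsin that binds all-trans retinal in pigment epithelium and Müller glia, was at 8.53, 5.67 and 5.85 FPKM in diabetic 1, 2 and 3 and at 11.7, 11.1 and 7.16 FPKM in control 1, 2 and 3. Diabetic 1 exceeded control 3, so the groups overlapped. The means were 6.68 ± 1.60 FPKM in diabetic and 9.997 ± 2.47 FPKM in control retina (SD, n = 3 each). The log2 difference of -0.54 had a 95% interval from -1.07 to -0.01 and did not pass over all genes (adjusted p = 0.246, limma). Müller glia markers, 7 genes led by Glul, summed to 1081 to 1506 FPKM in diabetic retina and to 1480 to 1693 FPKM in control retina. Most of the sum is Glul, Apoe and Dkk3, with log2 differences of -0.28, -0.78 and 0.12. All of the 7 but Glul and Apoe had positive differences, and the median of the 7 was 0.06. None of the 7 passed over all genes (lowest adjusted p = 0.137, limma), and their part in the level of Rgr was not tested.

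**Figure D1:**
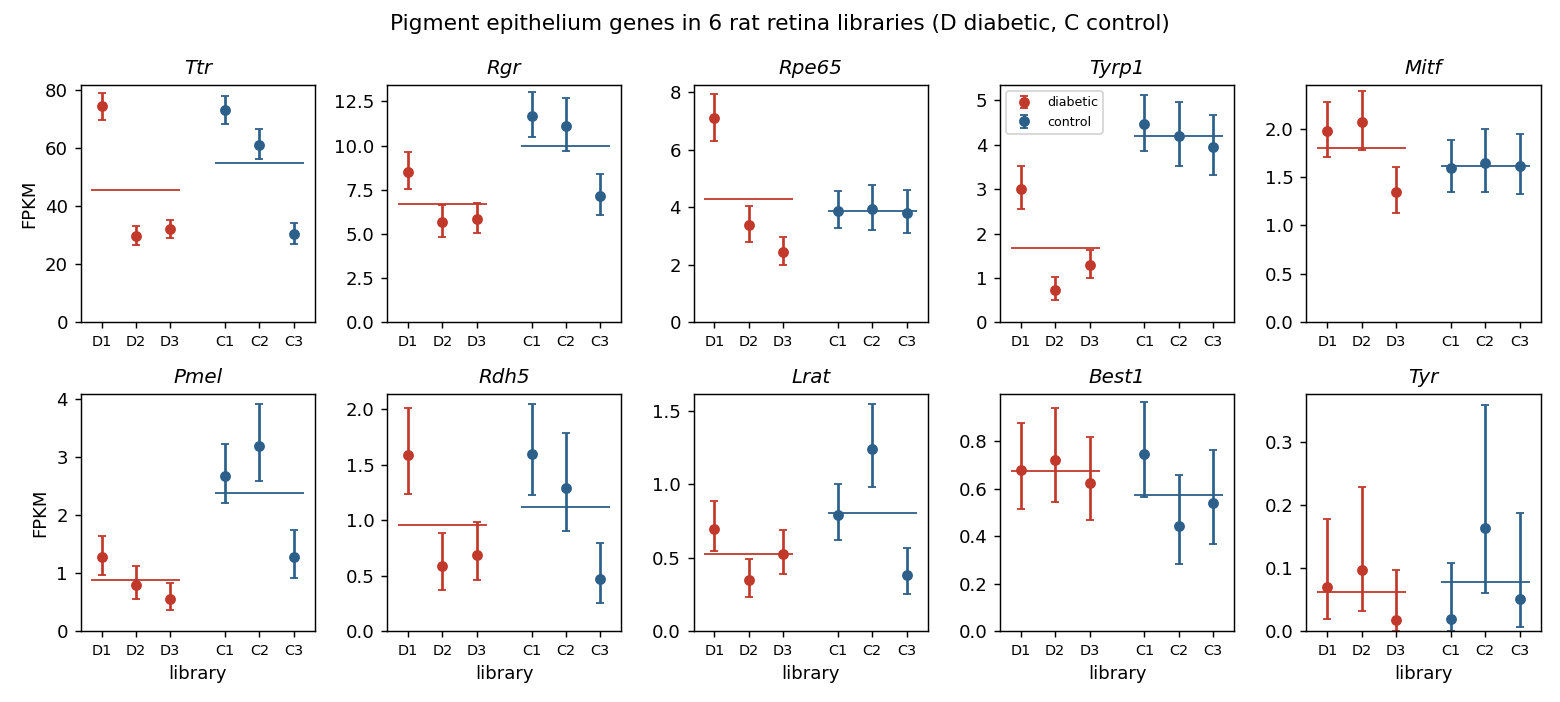
FPKM of the 10 members in each library, diabetic (D1 to D3, red) left of control (C1 to C3, blue), each panel with its own axis from 0. Bars are exact 95% Poisson intervals of the rebuilt fragments and horizontal lines are group means. The Tyrp1 and Pmel points of the diabetic group all lie below the control points, and the nearest pair of Pmel, diabetic 1 and control 3, is at 1.27 and 1.28 FPKM.

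The secreted carrier and the channel come next. Ttr, transthyretin, carries thyroxine and the retinol-binding protein complex and is made by pigment epithelium, and outside the retina also by ciliary epithelium, liver and choroid plexus. It was the most abundant member, at 74.3, 29.8 and 32.2 FPKM in diabetic 1, 2 and 3 and at 73.0, 61.2 and 30.4 FPKM in control 1, 2 and 3. Diabetic 1 and control 1 were alike, and so were diabetic 2, diabetic 3 and control 3, whose counting intervals overlap. The log2 difference was -0.31 with a standard error of 0.43 (adjusted p = 0.730, limma), and it was -0.72 without diabetic 1 and -0.06 without control 1. Best1, a calcium-activated chloride channel of the basolateral membrane, was at 0.677, 0.721 and 0.623 FPKM in diabetic 1, 2 and 3, against 0.743, 0.441 and 0.537 FPKM in control 1, 2 and 3. The counting intervals of all 6 libraries overlapped, and the log2 difference was 0.14 with a standard error of 0.23 (adjusted p = 0.772, limma), and it was 0.25 without control 1 and 0.05 without control 2. Best1 shares 2291 bases of the genome with Fth1, the ferritin heavy chain gene, on the opposite strand. Fth1 is listed at 0 in every library although all cells use ferritin, and the library kit is not stated to mark strand, so the Best1 values are uncertain.

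Mitf is the transcription factor that specifies pigment cells, with isoforms in many other cells. It was at 1.98, 2.06 and 1.35 FPKM in diabetic 1, 2 and 3 and at 1.60, 1.64 and 1.61 FPKM in control 1, 2 and 3. The control libraries lay inside the range of the diabetic ones, the highest library was 1.53 times the lowest, and the log2 difference was 0.10 with a standard error of 0.19 (adjusted p = 0.797, limma). It was 0.02 without diabetic 2 and 0.25 without diabetic 3.

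The remaining members belong to the melanosome, and here lay the largest differences among the members. Tyrp1, a melanosomal enzyme related to tyrosinase, was at 3.01, 0.726 and 1.28 FPKM in diabetic 1, 2 and 3, against 4.46, 4.19 and 3.95 FPKM in control 1, 2 and 3. The control libraries were close to each other, every diabetic library was below them, and diabetic 2 was the lowest with 33 fragments. The means were 1.67 ± 1.19 FPKM in diabetic and 4.20 ± 0.25 FPKM in control retina (SD, n = 3 each). The log2 difference was -1.25 with a 95% interval from -2.10 to -0.41, and it did not pass over all genes (adjusted p = 0.157, limma). When 1 library was left out it lay between -1.67, without diabetic 1, and -0.91, without diabetic 2.

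Pmel forms the fibrils on which melanin is laid down in the premelanosome. It was at 1.27, 0.799 and 0.564 FPKM in diabetic 1, 2 and 3 and at 2.67, 3.19 and 1.28 FPKM in control 1, 2 and 3. Control 1 and 2 were high, while diabetic 1 and control 3 were nearly equal, with counting intervals of 0.968 to 1.64 FPKM in diabetic 1 and 0.914 to 1.74 FPKM in control 3. The means were 0.878 ± 0.360 FPKM in diabetic and 2.38 ± 0.987 FPKM in control retina (SD, n = 3 each), and the log2 difference of -1.03 did not pass over all genes (95% interval from -1.81 to -0.25, adjusted p = 0.176, limma). The end of Pmel overlaps 85 bases of Dgka on the opposite strand, which was between 2.59 and 4.73 FPKM, so a part of the Pmel fragments may be shared. Tyr, the enzyme that begins melanin synthesis, had 4, 5 and 1 fragments in diabetic 1, 2 and 3 and 1, 6 and 2 fragments in control 1, 2 and 3. These are between 0.0175 and 0.164 FPKM and lie around the limit of 3 fragments, so no difference was detectable at this depth.

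Across the members, 0 of 9 passed an adjusted p of 0.05 by limma, as did 0% of all genes tested, the lowest value among all genes being 0.127. Tyrp1, Pmel and Rgr, 3 of 9 members, had an unadjusted p below 0.05 and were all lower in diabetic retina, against 10.7% of all genes in that direction. The groups did not overlap in 2 of 9 members, Tyrp1 and Pmel, against 26.2% of all genes and 13.6% in that direction, so the count is near the background. The highest library was at least 2 times the lowest in 7 of 9 members, against 26% of all genes. That share covers genes of every level, and none was taken at the levels of the members. Counting error widens the range of low members such as Rdh5, with as few as 14 fragments in a library. Of the 9 members, 6 had a negative and 3 a positive log2 difference, and their median was -0.31, against 0.00 over all genes tested. Among all genes 49.9% had a negative difference and 1.01% had one of -1 or lower. With voom on the rebuilt fragments 2 of 16363 genes passed, and neither was a member.

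**Figure D2:**
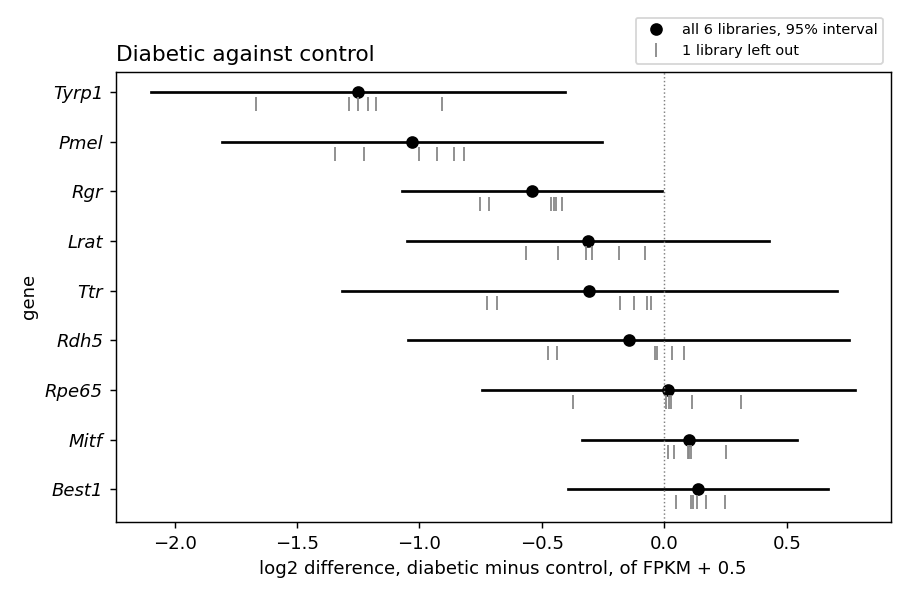
Log2 difference, diabetic minus control, of FPKM + 0.5 for the 9 members tested, with the 95% interval from limma. Grey ticks are the differences with 1 library left out. The intervals of Tyrp1, Pmel and Rgr lie below 0 before adjustment, and the ticks of Rpe65 and Rdh5 fall on both sides of 0.

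The levels of the members also varied between the libraries of each group. On the log2 scale and relative to its own mean, the median member stood at 0.18, -0.43 and -0.43 in diabetic 1, 2 and 3 and at 0.52, 0.40 and -0.11 in control 1, 2 and 3. In diabetic 1, 8 of 9 members were above their own mean, in diabetic 2 it was 2 of 9, Best1 and Mitf, and in diabetic 3 it was 1 of 9, Best1. In control 1 and control 2 it was 7 of 9 each, and in control 3 it was 1 of 9, Tyrp1. These counts were not taken over all genes, whose summed FPKM also differed between libraries. Diabetic 1 and control 2 were also the libraries with the most cornea and conjunctiva RNA, whereas control 1 was high in pigment epithelium genes and low in those of cornea and lens. Control 3, the library with most lens RNA, was low in Ttr, Rdh5 and Lrat but not in Tyrp1 or Rpe65. The part of these neighbouring tissues in the members' levels was not tested.

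Described by Pearson's r over the 6 libraries, Ttr and Rdh5 moved most closely together (r = 0.99), followed by Rgr and Pmel (r = 0.96). Within each library all genes share 1 depth and 1 dissection. Of 36 pairs of members 18 had an r above 0.5. The share over pairs of all genes was not taken, so this count cannot be called particular to the members. A set of 6 members was picked after the values were seen and therefore not tested. In it, Ttr, Rdh5, Lrat, Rgr, Pmel and Tyrp1 had r between 0.54 and 0.99 in their 15 pairs. By rank (Spearman's rho) these pairs were looser, from 0.37 for Ttr with Pmel and for Pmel with Rdh5 to 0.94 for Rgr with Tyrp1. Rpe65 followed Ttr at r = 0.67 and Lrat at r = 0.28. The highest r of Best1 was 0.33, with Mitf. Mitf, Best1 and Rpe65 hold no M-box in the windows searched, nor do Ttr, Rdh5, Lrat, Rgr and Pmel, so among the members tested only Tyrp1 does.

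**Figure D3:**
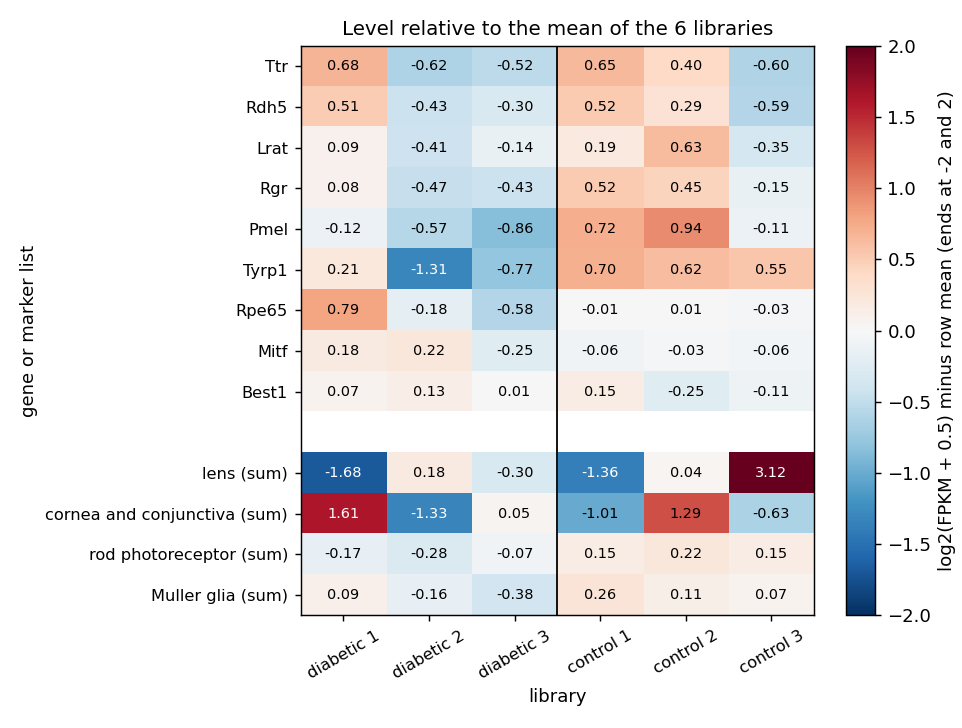
Level of each member tested, and of the summed genes of 4 marker lists, in each library as log2(FPKM + 0.5) minus the mean of its row, with the color scale ending at -2 and 2. Ttr and Rdh5 are high in diabetic 1, control 1 and control 2, lens RNA is highest in control 3 (3.12) and cornea RNA in diabetic 1 (1.61).

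The members did not keep 1 ratio to each other. Relative to Rpe65 in the same library, Tyrp1 was at 0.425, 0.215 and 0.525 in diabetic 1, 2 and 3, against 1.15, 1.07 and 1.04 in control 1, 2 and 3. For Pmel over Rpe65 the ratios were 0.179, 0.236 and 0.231 in diabetic 1, 2 and 3, against 0.688, 0.812 and 0.335 in control 1, 2 and 3. Both genes were thus lower relative to Rpe65 in every diabetic library than in any control library, and 0.966% of all genes tested were apart in the same direction. Over Ttr and over Rgr the groups were also apart for both genes, where 0.275% and 0.251% of all genes were. The log2 differences of the 6 ratios lay between -1.58, for Tyrp1 over Rpe65, and -0.84, for Pmel over Rgr. Each had p = 0.1 by an exact permutation test, two-sided, which is the smallest p that 3 against 3 libraries allow, so none could pass 0.05, and adjusted over the 6 it remains 0.1. These ratios were chosen after the values had been seen, and the 6 share their genes and libraries. Tyrp1 and Pmel were picked with their groups already apart, and they vary with Rgr at r = 0.85 and 0.96. The shares of all genes are therefore no measure of how rare such a separation is. The same holds for the permutation p.

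**Figure D4:**
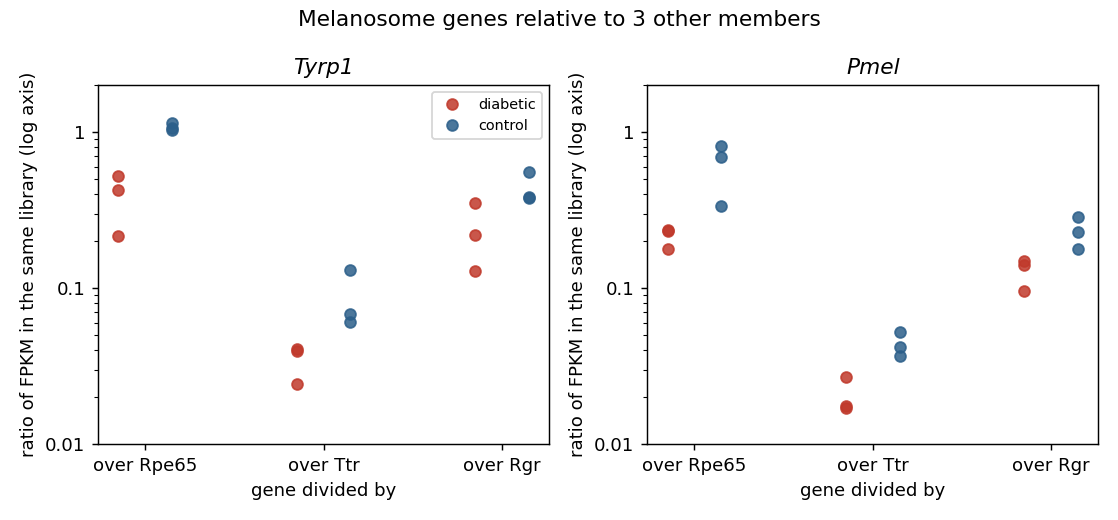
Ratio of Tyrp1 (left) and of Pmel (right) to Rpe65, Ttr and Rgr in the same library, on a log axis, with diabetic libraries in red left of control libraries in blue. In all 6 columns the diabetic points lie below the control points, most widely for Tyrp1 over Rpe65, at 0.215 to 0.525 against 1.04 to 1.15.

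Other genes of the pigment epithelium were followed in 4 lists, and 0 of their 28 tested genes, of 33 listed, passed over all genes by limma. Unadjusted p-values below 0.05 were found for 4 of 28, against 19.9% of all genes. The groups did not overlap in 4 of 28, against 26.2% of all genes. Of these, Rrh and Gas6 were lower and Trpm3 and Lrp2 higher in diabetic retina. The log2 differences of the 28 were negative in 19 and positive in 9, with a median of -0.11. Many of these genes are also used by other retinal cells, such as Rlbp1 by Müller glia, Rdh11 by photoreceptors and Otx2 by photoreceptors and bipolar cells.

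In the retinoid list 6 of 7 genes were lower and 0 passed, with a median log2 difference of -0.27. Rrh, peropsin, an opsin of the pigment epithelium, was at 48.3, 41.9 and 38.8 FPKM in diabetic 1, 2 and 3, against 116.7, 52.4 and 55.9 FPKM in control 1, 2 and 3. The groups did not overlap, control 1 stood far above the rest, and the log2 difference was -0.70 (adjusted p = 0.244, limma). It was -0.33 without control 1 and -0.91 without control 2. Rrh exceeded Rpe65 in every library, by between 6.80 and 30.1 times. The retinol dehydrogenase genes Rdh11 (-0.46) and Rdh10 (-0.20) and the retinaldehyde-binding protein gene Rlbp1 (-0.38) had smaller differences, with adjusted p between 0.177 and 0.357 (limma). The summed level of this list was 349.9 to 457 FPKM in diabetic and 485 to 603 FPKM in control retina. Most of the sum is Rdh11, at 187.9 to 329.6 FPKM, and Rlbp1, at 83.6 to 141.5 FPKM, which photoreceptors and Müller glia also use. All genes together also summed lower in diabetic libraries, to 467488 to 500107 FPKM, against 514771 to 552093 FPKM in control libraries.

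In the transport list 5 of 7 tested genes were lower and 0 passed. Slc16a8, the lactate transporter of the basolateral membrane, was at 4.14, 2.10 and 2.49 FPKM in diabetic 1, 2 and 3 and at 4.24, 4.30 and 2.73 FPKM in control 1, 2 and 3. It was high in the same 3 libraries as Ttr and Rdh5, and its log2 difference was -0.34 (adjusted p = 0.507, limma). The transporter gene Slc6a20 had -0.34, while the cation channel gene Trpm3 (0.41) and the endocytic receptor gene Lrp2 (0.44) were the 2 genes with positive differences (adjusted p between 0.170 and 0.460 for these 3, limma). In the list of phagocytosis and secretion 4 of 8 were lower and 4 higher, with 0 passing. Its genes of smallest p were the integrin gene Itgav (0.34), the bridging ligand gene Gas6 (-0.16), Efemp1 (0.24), an extracellular matrix protein gene, and the lipid transfer gene Pltp (-0.19). In the list of identity and epithelial genes 4 of 6 tested were lower and 0 passed, among them the keratin genes Krt8 (-0.08) and Krt18 (0.27), Ermn (-0.25) and Wfdc1 (-0.11). The keratins are shared with other simple epithelia.

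Among the melanosome genes outside the members, 5 of 10 listed were tested, 0 passed, 4 had a negative and 1 a positive difference, and the median log2 difference was -0.04. The transporter gene Slc45a2 was at 0.813, 0.806 and 0.506 FPKM in diabetic 1, 2 and 3, against 0.695, 0.979 and 0.781 FPKM in control 1, 2 and 3, a log2 difference of -0.13 (adjusted p = 0.785, limma). Rab32 (-0.04) and Mreg (0.17) act in organelle traffic of many cells. Slc24a5 (-0.09), a melanosomal exchanger gene, was between 39.1 and 50.8 FPKM, and it overlaps 99 bases of Myef2 on the opposite strand, which averaged 71.3 FPKM. Mlana and Oca2, which pigment cells express, were at 0 in control 3, Oca2 also in diabetic 3, and both were at most 0.102 FPKM in any library. Of the melanocyte markers, Sox10 was between 0.0390 and 0.277 FPKM, while Kit and Ednrb, which other retinal cells also express, summed with it to 7.90 to 11.03 FPKM in diabetic and 6.11 to 8.44 FPKM in control retina. Of 7 genes of choroid and sclera, the collagen genes Col1a1, Col1a2 and Col3a1 and the proteoglycan genes Dcn and Lum were each at or below 0.578 FPKM. The list summed to 4.75 to 5.07 FPKM in diabetic and 3.50 to 4.53 FPKM in control retina. Most of the sum is Fmod, at 1.17 to 2.61 FPKM, and Plvap, at 1.61 to 1.93 FPKM. Fmod had a log2 difference of 0.51 (adjusted p = 0.224, limma) and Plvap one of -0.04. The 6 genes of ciliary body and iris summed to 19.2 to 27.4 FPKM in diabetic and 23.8 to 31.4 FPKM in control retina. Most of this sum is Col9a1, at 10.6 to 24.4 FPKM, with a log2 difference of -0.35 (adjusted p = 0.433, limma). Optc had one of 1.00 (adjusted p = 0.128, limma), and of the 5 genes tested 3 had a positive and 2 a negative difference. The part of melanocytes, choroid and ciliary epithelium in the levels of Tyrp1, Pmel and Ttr was not tested.

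Genes with the pattern most like that of the members were sought among 2021 genes that averaged 1 FPKM or more and varied by at least 1 log2 unit. For Rpe65 the closest by Pearson's r over 6 libraries were Mir3574, Fitm1, Commd5, AC126572.6, LOC103694902, AABR07044362.5, LOC100910755 and Hist1h4m, with r between 0.90 and 0.98. Each of these 8 was highest in diabetic 1, as Rpe65 was, and LOC103694902 reached 14.1 FPKM there, with a range of 1.44 to 3.08 FPKM elsewhere. For the mean of the 9 members tested, the closest were RF00072, Sst, Mir221, AABR07034639.1, Ppp1r17, Rgs10, Crh and AABR07026317.1, with r between 0.93 and 0.97. Both sets of r are the highest picked from 2021 genes over 6 libraries, so their height is no measure of a link. Counting error was not set against them, and Mir221 was at 0 FPKM in diabetic 2, diabetic 3 and control 3. Sst, the somatostatin gene, was at 17.6, 8.57 and 10.1 FPKM in diabetic 1, 2 and 3 and at 23.2, 23.5 and 12.98 FPKM in control 1, 2 and 3. The members themselves were left out of this search. Many genes of the pigment epithelium lists were too low or varied too little to enter it. None of these 16 genes was on such a list, which therefore says little about the pattern.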

How the data were processed

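Poly-A RNA was sequenced as read pairs with a kit for which no strand marking is stated, per the labels' protocols, and HISAT2 2.0.5 is named in the submitters' processing notes. No counting tool, genome build or annotation is named in these sources. The deposited unit is FPKM, 1 column per library, per the file headers. Multiplied by gene length and divided by the value of 1 fragment in that library, 100% of values came within 0.05 of a whole number of fragments, which gave the fragments used for counting errors.

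The test was limma 3.58.1 (R 4.3.3) on log2(FPKM + 0.5), for genes averaging 0.5 FPKM or more (group alone, intensity trend, two-sided, Benjamini-Hochberg over all genes, threshold 0.05). This scale understates changes of low genes. The functions were tested on simulated data. Every pair of libraries differed by more than counting noise (lowest chi-square per degree of freedom 10.7).

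Members, lists and motifs were chosen with earlier results of these data known. Named are all members, the 4 genes of smallest p in each list described and the 8 most alike in pattern. Otx2, Mlana, Oca2, Sox10, the collagens, Dcn, Lum, Gnat1, Glul, Apoe, Dkk3, Col9a1, Dgka, Fth1 and Myef2 were named after their values were seen. The lists of lens, cornea, rods, Müller glia, blood, choroid, ciliary body and melanocytes are given by sums or ranges, some genes of the lists are not reported here, and blood genes summed to between 40.9 and 54.4 FPKM. Alternatives were other pseudocounts, no filter, TPM, quantile normalization, voom, a replicate block and leaving out each library.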

Additional observations from a re-analysis of the deposited data

How the results depend on the processing

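The count of 0 genes past the threshold over all genes became 2 with voom on the rebuilt fragments and lay between 0 and 4 when 1 library was left out (4 without diabetic 1, 1 without diabetic 2, 1 without control 2). The count of members passing was 0 under every alternative run. Tyrp1 (-1.67 to -0.91), Pmel (-1.34 to -0.82) and Rgr (-0.75 to -0.42) kept a negative log2 difference in the 6 fits with 1 library left out, with an adjusted p of at least 0.0598 (limma). Without control 3 the adjusted p of Pmel was 0.0598, in a range from 0.0598 to 0.385 over the libraries left out. Under the other alternatives Tyrp1 lay between -1.50 and -1.05.

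The sign of Rpe65 changed to -0.054 under quantile normalization, and it lay between -0.37 and 0.31 when 1 library was left out. Rdh5 lay between -0.48 and 0.078. With TPM, which moved the median of all genes by 0.13, Krt8 was at 0.017, Wfdc1 at 0.00097, Slc24a5 at 0.045 and Rab32 at 0.086. With 1 library left out, Krt8 lay between -0.46 and 0.15, Krt18 between -0.0023 and 0.48, Wfdc1 between -0.32 and 0.085, Slc24a5 between -0.18 and 0.010 and Rab32 between -0.13 and 0.048. The causes were not tested.

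Same-numbered animals are not stated to share a litter or a day. Their deviations from the group means had correlations of -0.05, -0.08 and 0.00 over genes, which cannot settle whether they do. With the replicate block 0 genes and 0 members passed. The block lowered the standard error of Ttr from 0.43 to 0.24, and also that of Rpe65, Rgr, Pmel, Tyrp1 and Rdh5. It raised that of Lrat, Best1 and Mitf. Lrat, Best1, Rdh5 and Tyr had fewer than 100 fragments in every library, which widens their counting intervals, but Lrat and Rdh5 also differed between libraries beyond those intervals.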

Other observations

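Myoc, the gene of myocilin, which is secreted by trabecular meshwork and ciliary body, was picked after its values were seen. It was at 6.21, 1.44 and 1.78 FPKM in diabetic 1, 2 and 3 and at 3.99, 4.36 and 1.91 FPKM in control 1, 2 and 3, high in the same 3 libraries as Ttr and Rdh5. The summed genes of ciliary body and iris did not share this pattern. They were at 19.2, 27.1 and 27.4 FPKM in diabetic 1, 2 and 3 and at 23.8, 23.8 and 31.4 FPKM in control 1, 2 and 3.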
